A study of Homo sapiens with 6 samples.

Results

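The HOX cluster genes were examined in 22Rv1 cells, an established human prostate cancer line that expresses the androgen receptor, after knockdown of MED12. Genes were taken by symbol, as HOX followed by a cluster letter from A to D and a paralogue number. The count table held 62703 genes, of which 39 matched and 38 were analysed. All counts, sums and rankings of HOX genes and clusters below refer to these 38. Cells were transfected 24 h after seeding with small interfering RNA (25 pmol), either non-targeting (siCtrl, n = 3) or directed at MED12 (siMED12, n = 3), got fresh medium at 6 h and were harvested at day 3. All cells grew in medium with 10% serum, and both groups received a transfection, so untreated cells were not part of the comparison. The pool lowers MED12 transiently and incompletely, and the line stands for a single tumor. In bulk libraries such as these, fewer cells with a transcript and less transcript per cell cannot be told apart.

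HOX genes encode homeodomain transcription factors that give cells their position along the head-to-tail axis of the embryo. In mammals they lie in 4 clusters, and genes with the same paralogue number in different clusters descend from a common ancestor. Low numbers act anteriorly and high numbers posteriorly, and groups 9 to 13 include the genes that pattern the hindgut, limbs and urogenital tract, from which the prostate arises. Many adult tissues and tumors keep a set of HOX genes on. HOX proteins bind DNA with cofactors of the PBX and MEIS families, and the clusters are held silent by Polycomb complexes and active by trithorax (MLL) complexes. MED12 is a subunit of the kinase module of Mediator, the complex that links transcription factors to RNA polymerase II.

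In the GRCh38 assembly the analysed genes span chr7:27092993-27200091 (HOXA, 11 genes), chr17:48528526-48633572 (HOXB, 9 genes), chr12:53938831-54056030 (HOXC, 9 genes) and chr2:176092721-176190907 (HOXD, 9 genes). Each gene's counts come from all its exons, untranslated regions included. The homeobox, the part of the gene that encodes the DNA-binding homeodomain, is so similar between members that reads could in principle be assigned to the wrong gene. The following 48 bases (codons 42 to 57 of the homeobox, over the helix that contacts DNA) are shown for HOXB6 and HOXB7, the most alike of the 7 HOXB genes on which the comparison turned, with bases of HOXB6 that differ from HOXB7 in capitals (coding strand, Gencode release 44 transcripts).

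HOXB6: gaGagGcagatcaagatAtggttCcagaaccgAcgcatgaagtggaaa
HOXB7: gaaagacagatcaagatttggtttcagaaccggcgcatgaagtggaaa

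Over the whole 180-base homeobox the 7 HOXB genes were identical at 58.9% to 88.9% of positions across 21 pairs. The closest pair was HOXB6 and HOXB7, whose longest identical run was 51 bases. Outside such runs the transcripts were distinct. Of all 50-base stretches in the exons of HOXB7, 1.64% also occurred at another locus. The shares were 0.170% for HOXB3, 0.0512% for HOXB4, 0.0553% for HOXB5 and 0.0755% for HOXB6, and none were found for HOXB8 and HOXB9. Shared sequence between family members therefore touched only small parts of the genes described here.

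Overlap between neighboring genes was larger. HOXB6 shared 433 exonic bases with HOXB3 on the same strand and 425 with the antisense gene HOXB-AS3, so that 67.1% of its exonic bases belonged to it alone. That share was 88.3% for HOXB3, 97.8% for HOXB4 and 100% for HOXB7, HOXB8 and HOXB9. In the HOXC cluster, HOXC4 and HOXC6 shared 484 bases, and HOXC5 had only 32.7% of its exonic bases to itself. The 17 cluster genes whose bases were all shared with genes on the same strand had 0 counts in all libraries, whereas the 2 genes whose bases were shared only with the opposite strand had 23 counts in all. HOXC5 is thus measured over a minority of its sequence.

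A promoter window from RefSeq (GRCh38.p14, 250 bases before to 50 bases after the start) was found for 20 of the 38 genes. The windows of HOXA3 (chr7:27152534-27152833, minus strand), HOXC4 (chr12:54016638-54016937, plus strand) and HOXA10 (chr7:27179812-27180111, minus strand) are shown. These genes lie outside the HOXB cluster, have a window and were called higher with the replicate block, described below, but not without it. With the block 2 of 11 HOXA and 2 of 8 HOXC genes were called, where 17.1% of all genes rose and 16.2% fell. The table holds 7 windows for HOXA3 and 2 for HOXA10, of which the most upstream was taken, and 1 for HOXC4. HOXC6, called likewise, and HOXB2 to HOXB9 had no window. Capitals mark matches on either strand to CCAAT or TATAAA, and the 2 longest stretches shared by the HOXA3 and HOXC4 windows.

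HOXA3: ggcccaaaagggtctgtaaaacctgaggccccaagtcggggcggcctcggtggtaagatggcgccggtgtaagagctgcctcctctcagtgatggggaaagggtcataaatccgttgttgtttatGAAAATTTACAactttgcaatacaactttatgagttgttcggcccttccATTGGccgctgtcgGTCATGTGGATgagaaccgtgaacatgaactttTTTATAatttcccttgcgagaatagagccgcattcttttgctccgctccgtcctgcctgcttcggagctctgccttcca
HOXC4: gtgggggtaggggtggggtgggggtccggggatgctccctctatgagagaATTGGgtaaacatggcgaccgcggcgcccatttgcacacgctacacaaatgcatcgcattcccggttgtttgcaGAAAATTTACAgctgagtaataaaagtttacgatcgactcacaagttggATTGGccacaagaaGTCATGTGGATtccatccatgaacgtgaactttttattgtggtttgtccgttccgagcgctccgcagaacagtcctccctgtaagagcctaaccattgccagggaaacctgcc
HOXA10: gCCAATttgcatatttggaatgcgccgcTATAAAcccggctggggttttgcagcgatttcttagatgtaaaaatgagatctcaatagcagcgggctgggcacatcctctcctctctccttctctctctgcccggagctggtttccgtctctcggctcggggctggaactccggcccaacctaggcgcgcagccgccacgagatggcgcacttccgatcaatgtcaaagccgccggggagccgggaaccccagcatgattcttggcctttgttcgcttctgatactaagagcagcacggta

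Motifs were searched on both strands. The TATA box TATAAA occurred in 11.5% of all 35116 promoter windows in the table, and CCAAT in 34.6%. The E-box CACGTG occurred in 7.26%, the retinoid receptor site AGGTCA in 13.8% and the homeodomain site TAATTA in 4.84%. The printed HOXA3 and HOXA10 windows held the first and second of these, and the HOXC4 window held the second alone. Of the other HOXA3 windows none held either, and 1 held CACGTG, whereas both HOXA10 windows held TATAAA and CCAAT. The longest stretches shared by the HOXA3 and HOXC4 windows, of 11 bases each, were GAAAATTTACA, at base 126 and base 125 of the respective window, and GTCATGTGGAT, at base 189 and base 188. They occurred in 0.0313% and 0.0228% of all windows. Because the stretches were picked from these 2 windows, the shares do not test whether the genes have a promoter element in common. RefSeq gives HOXC5 the same window as HOXC4, yet HOXC4 had 174 to 370 counts per library and HOXC5 2 to 21, with the limit on HOXC5 given above.

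The libraries held 16136699 to 17012788 counts, and levels are given as CPM, counts per 1e+06 of the TMM-scaled library size. MED12 itself had 67.8, 77.7 and 72.6 CPM in siCtrl, against 23.9, 14.97 and 30.1 CPM in siMED12. Its log2 fold change was -1.66 (SE 0.23), at an adjusted p of 0.0314 in edgeR, and the adjusted p became 0.0818 without siCtrl replicate 1, 0.186 without siCtrl replicate 2, 0.108 without siMED12 replicate 1 and 0.13 without siMED12 replicate 2. Those fits had no term for the replicate number. Replicate numbers were shared between the groups and paired the libraries, so fits with such a term (the replicate block) were made as well. With the block the log2 fold change of MED12 was -1.68 (SE 0.10, adjusted p = 1.52e-16 in edgeR). Without the block 27 genes were higher and 74 lower, or 31 and 49 with library size as the only scaling. With the block 3058 were higher and 2908 lower. All 10 prostate luminal markers examined were measurable, at summed levels of 3295 to 3549 CPM in siCtrl and 2731 to 3055 CPM in siMED12. Endothelial markers reached at most 0.122 CPM in sum, and KRT5 and KRT14 of basal epithelium had 0 counts. The leukocyte marker PTPRC had 0 to 3 counts. Fibroblast markers summed to 26.8 to 40.05 CPM in siCtrl and 26.8 to 42.8 CPM in siMED12, most of it COL1A1 and LUM, while COL1A2 had 0 to 3 counts. The source of that signal and the part of the luminal shift in the results below were not tested.

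22Rv1 cells expressed genes of the HOXA, HOXB and HOXC clusters, while HOXD was nearly silent. Of the 38 genes, 26 passed edgeR's filter on low counts (68.4%, against 66.8% of all protein-coding genes). These were all 11 HOXA genes, 7 of 9 HOXB genes and 8 of 9 HOXC genes. None of the 9 HOXD genes passed. HOXD1, HOXD3, HOXD4, HOXD10, HOXD11 and HOXD12 had 0 counts in every library, which allows a level of up to 0.175 to 0.190 CPM per library. HOXD8 had 0 to 1, HOXD9 1 to 5 and HOXD13 1 to 8 counts. In the other clusters HOXB1 (0 to 1 counts), HOXB2 (3 to 17) and HOXC5 (2 to 21) also stayed below the filter.

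Levels were compared between genes per length of exon, as CPM per kilobase. The length includes bases shared with neighboring genes, so genes with large overlap, such as HOXB6 and HOXA10, may be understated. The order and the count above the median were not corrected for this. In siCtrl, HOXC10 (11.6 ± 1.23, SD, n = 3) and HOXA5 (11.5 ± 0.746) were highest among the analysed genes and could not be separated given their spread. HOXC13 (9.04 ± 2.19), HOXC12 (8.79 ± 2.29), HOXC9 (8.69 ± 3.80) and HOXA6 (8.54 ± 0.859) followed, and their SDs overlapped as well. HOXC10 and HOXC9 are known for roles in motor neuron identity of the caudal spinal cord, HOXC13 for hair and nail formation and HOXA5 for lung development. HOXB5 (7.94 ± 1.75), HOXB7 (7.33 ± 0.686) and HOXB6 (7.16 ± 0.837) led the analysed HOXB genes. At the lower end stood HOXC11 (1.39 ± 0.725), HOXA11 (1.07 ± 0.447) and HOXA2 (0.374 ± 0.235), a gene known for its role in the hindbrain. The median over all tested protein-coding genes was 5.60 on the same scale. Of the 26 HOX genes, 10 lay above it, and the highest stood at the 70.2nd percentile.

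**Figure D1:**
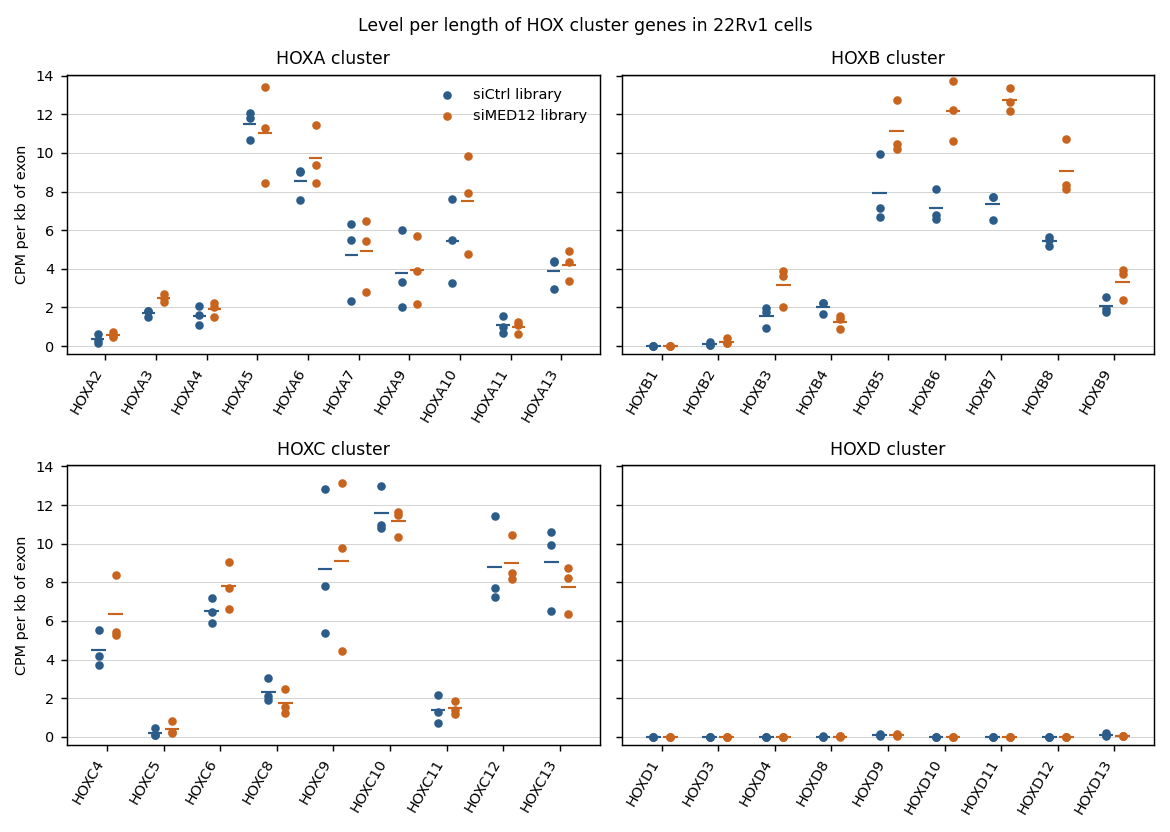
Level of 37 HOX genes in CPM per kilobase of exon, by cluster and in order of paralogue number. Points are single libraries (siCtrl blue, siMED12 orange) and short lines are group means of n = 3. HOXD genes lie at or near 0, and the highest siCtrl means are those of HOXC10 (11.6) and HOXA5 (11.5).

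The main comparison asked which HOX genes differed between siMED12 and siCtrl. The clearest pattern was in the HOXB cluster, where 6 of the 7 measured genes were higher in siMED12 in all 3 replicate pairs and the remaining one, HOXB4, was lower in all 3. The summed level of the cluster was 78.9 ± 8.77 CPM in siCtrl and 128.9 ± 8.92 CPM in siMED12 (SD, n = 3), a 1.63-fold difference, with every siMED12 library above every siCtrl library. The sums for HOXA were 109 ± 20.0 and 124 ± 21.6 CPM, and those for HOXC 138 ± 28.1 and 144 ± 25.3 CPM. In both clusters the groups overlapped, but the sum was higher in siMED12 within all 3 pairs. For HOXA it was 87.5 against 101, 113 against 127 and 127 against 144 CPM, and for HOXC 113 against 124, 131 against 135 and 168 against 172 CPM. Without the block the median log2 fold change was 0.74 over the 7 HOXB genes, 0.11 over the 11 HOXA genes and 0.05 over the 8 HOXC genes. It was 0.15 over all 26 HOX genes and 0.02 over all 17901 genes tested. The median over the 26 genes was 0.07 without siCtrl replicate 1, 0.40 without siCtrl replicate 3 and 0.32 without siMED12 replicate 1.

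Without the block no HOX gene passed edgeR's quasi-likelihood test at an adjusted p of 0.05, a threshold passed by 0.564% of all genes, and limma-trend likewise called none. The adjusted p of the 26 genes ranged from 0.0616 to 0.974. At an unadjusted p under 0.05 there were 8 HOX genes (15.6% of all genes passed this), namely HOXA3 and all 7 HOXB genes. With the block, 10 HOX genes rose (17.1% of all genes rose) and 1 fell (16.2% of all genes fell). Those that rose were HOXA3, HOXA10, HOXB3, HOXB5, HOXB6, HOXB7, HOXB8, HOXB9, HOXC4 and HOXC6, and the one that fell was HOXB4. DESeq2's Wald test, also without a block, called HOXB3, HOXB6, HOXB7 and HOXB8 (5.18% of the genes it tested were called), and so did edgeR without a filter on low counts (1.4%). The groups did not overlap for 6 HOX genes that were higher (11.2% of all genes) and 1 that was lower (10.9%). In all 3 pairs, 12 HOX genes were higher (30.6% of all genes) and 3 lower (27%). With the block all 7 measured HOXB genes were called, against 2 of 11 HOXA genes and 2 of 8 HOXC genes.

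**Figure D2:**
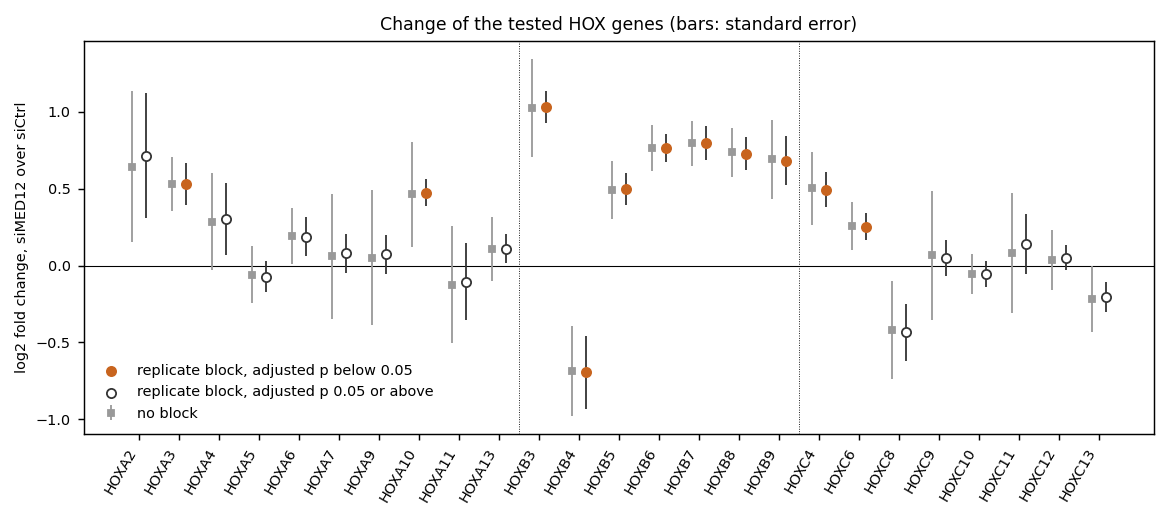
Log2 fold change (siMED12 over siCtrl) of 25 tested HOX genes in order along the HOXA, HOXB and HOXC clusters. Grey squares show the fit without and circles the fit with the replicate block (orange, adjusted p below 0.05), bars are standard errors, and dotted lines separate the clusters. The HOXB genes except HOXB4 (-0.69) lie between 0.49 and 1.03, above most HOXA and HOXC genes.

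HOXB3, an anterior-class gene with roles in the hindbrain and pharyngeal arches, showed the largest difference among the 26. It had 13.1, 7.08 and 14.5 CPM in siCtrl, against 27.0, 15.1 and 28.7 CPM in siMED12. The groups did not overlap, and replicate 2 was the lowest library of both groups. Within pairs HOXB3 was higher by 106%, 113% and 97.6%. The log2 fold change was 1.03 (SE 0.32, adjusted p = 0.174 in edgeR without the block), and with the block 1.03 (SE 0.10, adjusted p = 2.46e-10).

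HOXB6 had 17.7, 17.1 and 21.2 CPM in siCtrl, against 35.7, 27.6 and 31.9 CPM in siMED12. HOXB7, which is elevated in several carcinomas, had 11.7, 11.8 and 9.94 CPM in siCtrl, against 20.3, 19.2 and 18.5 CPM in siMED12. HOXB8, a regulator of myeloid differentiation, had 13.2, 12.5 and 13.6 CPM in siCtrl, against 19.5, 25.8 and 20.1 CPM in siMED12. For all 3 genes every siMED12 library lay above every siCtrl library, and the controls differed little among themselves. The log2 fold changes were 0.77 (SE 0.15) for HOXB6, 0.79 (SE 0.15) for HOXB7 and 0.74 (SE 0.16) for HOXB8, with adjusted p of 0.0669, 0.0616 and 0.0848 in edgeR without the block. With the block the adjusted p were 7.95e-09, 2.74e-07 and 1.15e-06. These 3 neighbors share a central paralogue class, and HOXB7 and HOXB8 share no exonic bases with any other annotated gene.

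HOXB5, of the same central class, had 13.3, 12.5 and 18.5 CPM in siCtrl, against 19.5, 19.0 and 23.7 CPM in siMED12. The posterior gene HOXB9 had 4.58, 4.93 and 6.52 CPM in siCtrl, against 6.18, 9.59 and 10.1 CPM in siMED12. HOXB5 did not overlap between the groups, whereas for HOXB9 siMED12 replicate 1 lay below siCtrl replicate 3. The log2 fold change of HOXB5 was 0.49 (SE 0.19, adjusted p of 0.266 without and 1.67e-04 with the block). That of HOXB9 was 0.69 (SE 0.26, adjusted p of 0.243 without and 8.65e-04 with the block).

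HOXB4, known for expanding blood stem cells when overexpressed, went the other way. It had 4.46, 4.49 and 3.29 CPM in siCtrl, against 2.79, 1.75 and 3.07 CPM in siMED12, and the groups did not overlap. Between the replicate 3 libraries it differed by only -6.82%, against -37.4% and -60.9% in the other pairs. The log2 fold change was -0.69 (SE 0.29, adjusted p = 0.308) without the block and -0.69 (SE 0.24, adjusted p = 0.0205) with it. The blocked call was lost without the replicate 1 pair (adjusted p = 0.0865) and without the replicate 2 pair (log2 fold change -0.42, adjusted p = 0.257). HOXB4 (chr17:48575507-48578350) lies within the span of HOXB3 (chr17:48548870-48604912) on the same strand, so that a gene with a lower level lay inside a gene with a higher one. HOXB5, which was higher, also lies within the span of HOXB3. HOXB8 and HOXB9, both higher, lie within the span of HOXB7 on the same strand.

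**Figure D3:**
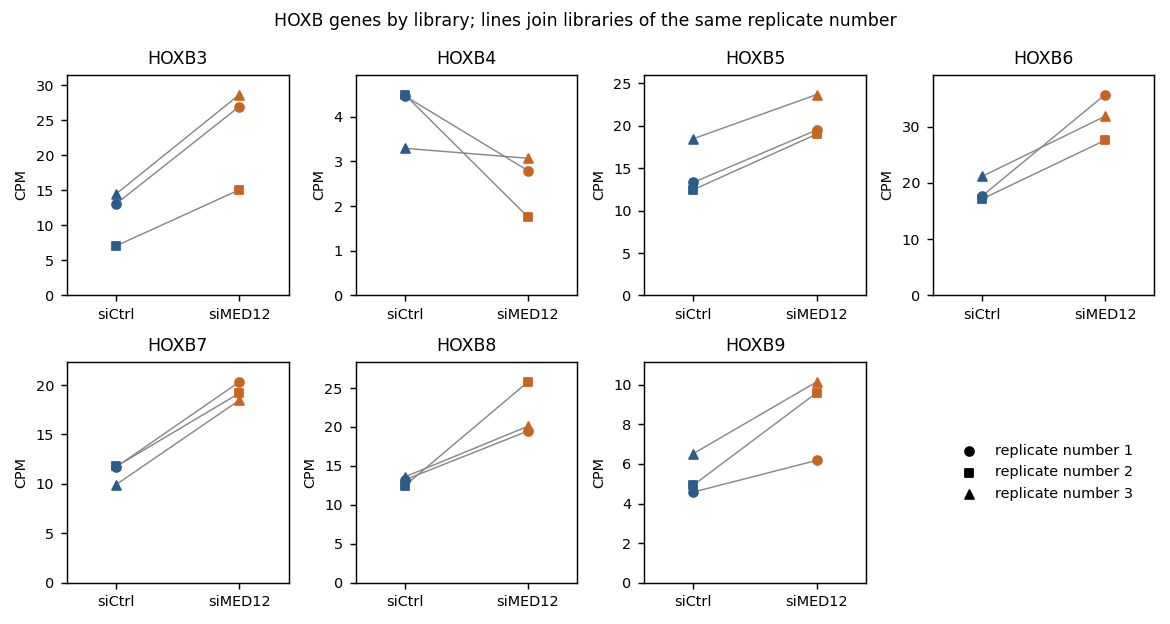
Level in CPM of the 7 measured HOXB genes in each library. Blue marks siCtrl and orange siMED12, the marker shape gives the replicate number, and lines join libraries of the same number. All lines rise except those of HOXB4, which fall, least so between the replicate 3 libraries.

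Outside the HOXB cluster, HOXA3, the paralogue of HOXB3 and a regulator of thymus and parathyroid formation, had 7.85, 6.58 and 7.92 CPM in siCtrl, against 11.7, 9.82 and 10.8 CPM in siMED12. It was the only HOXA gene whose groups did not overlap. The log2 fold change of 0.53 (SE 0.18) had an adjusted p of 0.199 without and 0.00226 with the block. HOXA3 and HOXB3 are the only members of paralogue group 3 that passed the filter, since HOXD3 had 0 counts.

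HOXA10, a posterior gene needed for uterine development, had 12.1, 20.4 and 28.2 CPM in siCtrl, against 17.6, 29.4 and 36.5 CPM in siMED12. The groups overlapped widely because the level depended on the replicate number, but each pair differed in the same direction, by 45.6%, 44.4% and 29.6%. The log2 fold change was 0.46 without the block (SE 0.34, adjusted p = 0.585) and 0.47 with it (SE 0.09, adjusted p = 4.33e-05). The antisense gene HOXA10-AS, which shares 608 exonic bases with HOXA10, had 1.43, 2.15 and 2.44 CPM in siCtrl, against 3.92, 2.86 and 3.57 CPM in siMED12. Its log2 fold change was 0.78 (adjusted p = 0.250) without and 0.79 (SE 0.26, adjusted p = 0.0150) with the block. The strand setting used in counting is not given in the sources used here. Cluster genes whose bases were shared only with the opposite strand still had counts, as given above. Whether reads of this pair over the shared bases were told apart was not tested.

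HOXC4 had 10.4, 11.6 and 15.4 CPM in siCtrl, against 14.6, 15.03 and 23.2 CPM in siMED12. HOXC6, which serves as a urine marker of prostate cancer, had 22.3, 20.4 and 24.9 CPM in siCtrl, against 26.7, 22.8 and 31.3 CPM in siMED12. Both genes overlapped between the groups and were higher in each pair, by 29.8% to 50.8% for HOXC4 and by 11.6% to 25.8% for HOXC6. HOXC4 had a log2 fold change of 0.50 (SE 0.24, adjusted p = 0.355) without and 0.49 (SE 0.11, adjusted p = 5.27e-04) with the block. For HOXC6 the values were 0.26 (SE 0.16, adjusted p = 0.486) and 0.25 (SE 0.09, adjusted p = 0.0192). The blocked call of HOXC6 was lost without the replicate 1 pair (adjusted p = 0.127) and without the replicate 3 pair (adjusted p = 0.162). The other 9 blocked increases were called in each of the 3 fits that left out a pair.

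The remaining 15 measured genes passed neither test. HOXA5 had 18.3, 20.3 and 20.7 CPM in siCtrl, against 14.6, 19.4 and 23.0 CPM in siMED12. HOXC10 had 25.6, 26.1 and 30.8 CPM in siCtrl, against 24.5, 27.2 and 27.6 CPM in siMED12. HOXC12 had 23.7, 25.2 and 37.3 CPM in siCtrl, against 27.6, 26.7 and 34.1 CPM in siMED12. These genes, among the highest per length, overlapped between groups and had log2 fold changes of -0.06, -0.06 and 0.04 without the block. HOXC13 had 15.4, 25.0 and 23.5 CPM in siCtrl, against 15.03, 19.4 and 20.6 CPM in siMED12. HOXC8 had 4.58, 5.12 and 7.31 CPM in siCtrl, against 3.74, 2.98 and 6.01 CPM in siMED12. Both were lower in siMED12 in all 3 pairs, with blocked log2 fold changes of -0.21 (adjusted p = 0.103) and -0.43 (adjusted p = 0.0672). HOXA6 had 9.70, 11.6 and 11.6 CPM in siCtrl, against 12.1, 10.8 and 14.7 CPM in siMED12. HOXA13, which patterns the distal limb and the genital tubercle, had 22.2, 22.3 and 14.9 CPM in siCtrl, against 24.9, 22.1 and 16.96 CPM in siMED12. Their log2 fold changes were 0.19 and 0.11 without the block.

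Among the low genes, HOXA4 had 1.84, 3.61 and 2.74 CPM in siCtrl, against 2.61, 3.86 and 3.51 CPM in siMED12, and HOXA2 had 0.773, 0.380 and 1.46 CPM in siCtrl, against 1.37, 1.05 and 1.69 CPM in siMED12. Both were higher in all 3 pairs without passing the test (blocked adjusted p of 0.350 and 0.186). HOXA11 had 1.78, 2.66 and 4.15 CPM in siCtrl, against 1.72, 3.27 and 2.88 CPM in siMED12. Each of these 3 genes rests on 6 to 68 counts per library, so that small differences were not detectable at this depth.

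Several central and posterior genes varied more between replicate numbers than between treatments. HOXA9, a driver of leukemia when rearranged or overexpressed, had 6.13, 10.1 and 18.3 CPM in siCtrl replicates 1, 2 and 3 and 6.59, 11.8 and 17.3 CPM in the siMED12 replicates. HOXA7 had 5.59, 13.2 and 15.2 CPM and 6.77, 13.1 and 15.6 CPM. HOXC9 had 8.98, 13.03 and 21.4 CPM and 7.37, 16.3 and 21.9 CPM. HOXC11 had 2.38, 4.17 and 7.07 CPM and 3.80, 4.50 and 6.13 CPM. In these genes the library numbered 1 was lowest and that numbered 3 highest in both groups, and the ratio of number 3 to number 1 was 2.98 in siCtrl and 2.63 in siMED12 for HOXA9, and 2.38 and 2.97 for HOXC9. Of the 26 measured HOX genes, 9 had this order in both groups (34.6%, against 10.2% of all genes tested). The other 5 were HOXA5, HOXA10, HOXB9, HOXC4 and HOXC10. Mitochondrially encoded genes followed the same order, at 4.43%, 6.31% and 10.0% of counts in siCtrl and 4.79%, 6.03% and 10.1% in siMED12, and the labels do not say what the numbers stand for. Their part in the HOX levels was not tested.

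**Figure D4:**
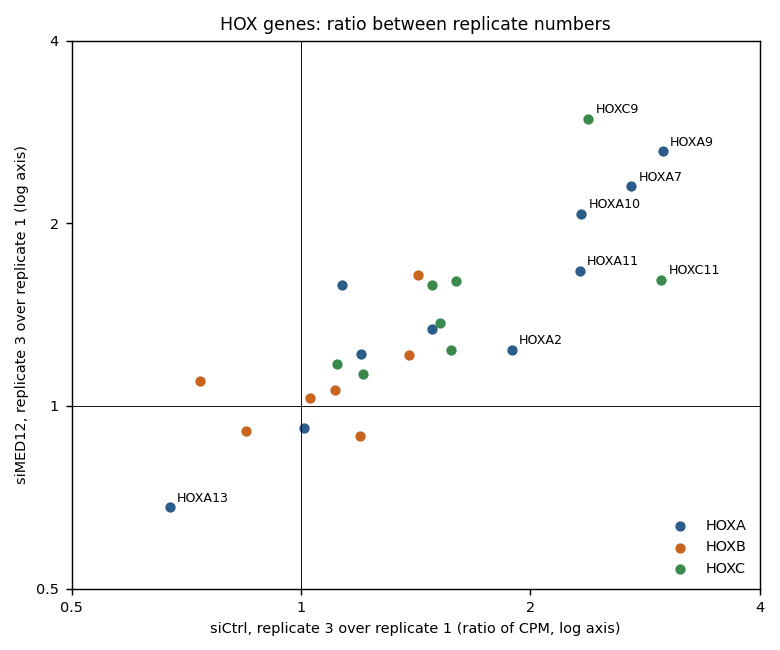
Ratio of the level in replicate 3 to that in replicate 1, within siCtrl (x axis) and within siMED12 (y axis), for 25 tested HOX genes on log axes. HOXA9 (2.98 and 2.63), HOXA7, HOXA10 and HOXC9 lie far above 1 in both groups, while most HOXB genes lie near 1.

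The other genes of the clusters were mostly low. Of 50 such genes, 48 of them annotated as non-coding, 13 passed the filter, all of them long non-coding RNAs. Without the block none was called in edgeR, with 3 at an unadjusted p under 0.05 (15.6% of all genes). With the block 1 of the 13 rose (17.1% of all genes) and 1 fell (16.2% of all genes). HOXA10-AS rose, as given above, and HOTTIP fell. HOTTIP, a long non-coding RNA at the posterior end of the HOXA cluster that is known to help keep posterior HOXA genes active, had 1.96, 1.77 and 1.65 CPM in siCtrl, against 1.31, 0.526 and 0.814 CPM in siMED12. The groups did not overlap, and the log2 fold change was -1.05 (SE 0.38, adjusted p = 0.0269) with the block and -1.02 (adjusted p = 0.258) without it. HOXA13, its neighbor, had a log2 fold change of 0.11 (adjusted p = 0.872 without the block). Among genes within 500 kb of the spans of the analysed genes, 45 of 149 passed the filter. Of these, 10 rose and 4 fell with the block, where 17.1% and 16.2% of all genes did. Without it edgeR called 0, with 5 at an unadjusted p under 0.05 (15.6% of all genes). Next to the span of the analysed HOXB genes, 4 of 17 rose and 2 fell, with a median log2 fold change of 0.08 against 0.74 for the HOXB genes themselves.

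Cofactors and regulators of HOX genes were described from 4 lists. Without the block edgeR called none of their 51 tested genes (0.564% of all genes), with 9 at an unadjusted p under 0.05 (15.6% of all genes). DESeq2 called 2 (5.18% of all the genes it tested). Of the TALE homeodomain cofactors, 7 of 9 genes passed the filter, and 3 rose and none fell with the block (17.1% and 16.2% of all genes). PBX3, a DNA-binding partner of HOX proteins, had 12.2, 11.96 and 10.1 CPM in siCtrl, against 16.6, 17.5 and 13.3 CPM in siMED12, without overlap between the groups. Its relative PBX2 had 43.8, 46.3 and 55.04 CPM in siCtrl, against 51.9, 52.9 and 66.5 CPM in siMED12, and the groups overlapped. With the block the log2 fold change was 0.46 (SE 0.12, adjusted p = 0.00153) for PBX3 and 0.24 (SE 0.06, adjusted p = 0.00274) for PBX2. MEIS1 and MEIS3 were measurable at 3.84 to 5.95 and 4.16 to 7.99 CPM and did not pass, and MEIS2 had 2 to 6 counts. A partner for HOX proteins of the PBX family was thus transcribed in every library.

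Of 27 Polycomb genes, all measurable, 4 rose and 5 fell with the block, shares near the background. CBX2, which reads the repressive histone mark, had 35.3, 37.6 and 59.8 CPM in siCtrl, against 27.0, 21.3 and 37.4 CPM in siMED12, with a blocked log2 fold change of -0.63 (SE 0.08, adjusted p = 3.38e-08). Its relative CBX8 (-0.42, adjusted p = 5.64e-05) and the accessory subunit AEBP2 (-0.20, adjusted p = 0.00846) fell as well. PHC1 (0.40, adjusted p = 2.53e-04), BMI1 (0.32, adjusted p = 4.03e-04) and PCGF5 (0.18, adjusted p = 0.0213), all of the repressive complex PRC1, rose. Of 12 MLL complex genes, 6 rose and 3 fell, again beside 17.1% and 16.2% of all genes. The histone demethylase KDM6A (0.32, adjusted p = 9.40e-04) and the methyltransferases KMT2A (0.19, adjusted p = 0.00133) and KMT2B (0.18, adjusted p = 0.00198) rose. The subunits MEN1 (-0.29, adjusted p = 9.99e-06), DPY30 (-0.29, adjusted p = 0.00630) and WDR5 (-0.16, adjusted p = 0.0136) fell. Activating and repressing complexes both held genes of either direction.

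The last list held receptors for retinoic acid, a classical inducer of HOX genes, and the CDX factors, which activate central HOX genes in the embryo. CDX1, CDX2 and CDX4 had 0 counts in every library and RXRG 0 to 1. With the block 3 of the 5 measured receptors rose and 1 fell (17.1% and 16.2% of all genes). RARB, itself a target of retinoic acid, had 10.2, 7.27 and 5.06 CPM in siCtrl, against 16.3, 11.2 and 7.45 CPM in siMED12. RARA had 13.7, 13.1 and 10.6 CPM in siCtrl, against 10.8, 5.67 and 7.76 CPM in siMED12. The blocked log2 fold changes were 0.62 (SE 0.14, adjusted p = 3.34e-04) for RARB and -0.65 (SE 0.14, adjusted p = 4.37e-04) for RARA, and RXRA (0.33, adjusted p = 0.00103) and RXRB (0.31, adjusted p = 4.87e-05) rose.

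**Figure D5:**
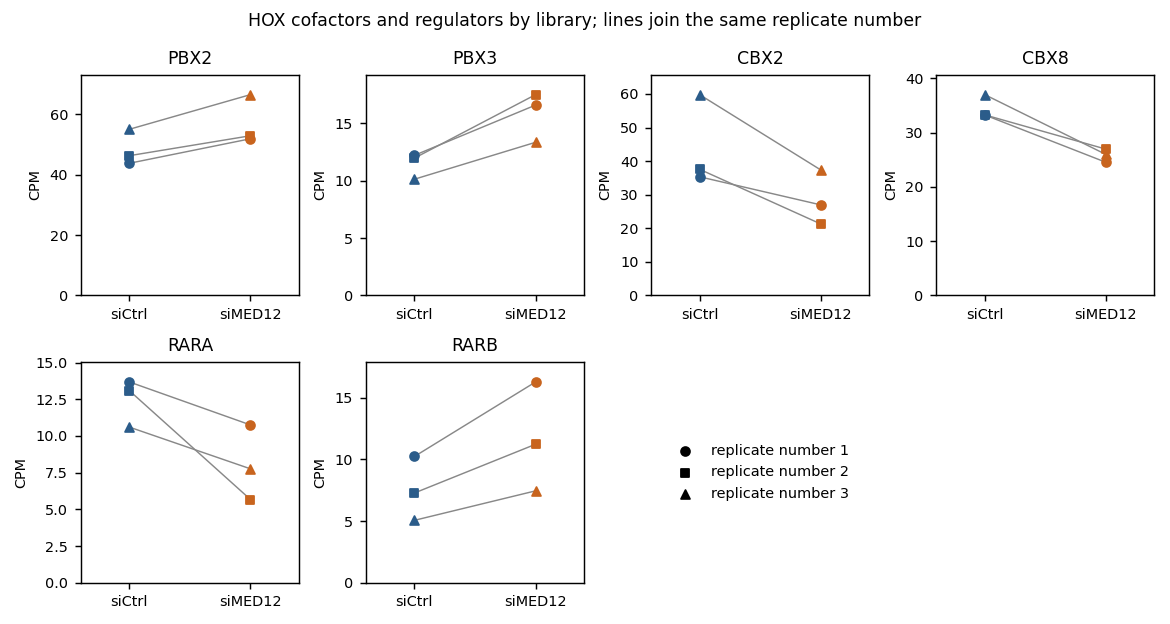
Level in CPM of 2 PBX cofactors, 2 Polycomb genes and 2 retinoic acid receptors in each library, with siCtrl in blue, siMED12 in orange and lines joining the same replicate number. PBX2, PBX3 and RARB are higher and CBX2, CBX8 and RARA lower in siMED12 in all 3 pairs.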

How the data were processed

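Poly(A) RNA of 22Rv1 cells was sequenced from strand-specific libraries, 3 per group, with groups and replicate numbers taken from the labels. Reads were aligned and counted with the R package Rsubread against Gencode release 43 (GRCh38.p13) by the authors, who deposited raw read counts per gene. The Rsubread version and its strand and multiple-overlap settings are not given in the sources used here. A deposited table of log2 CPM was not used. The study's methods describe its experiments in general as biological replicates, without saying what the replicate numbers of these libraries mark. The paper labels its heatmap of androgen response genes in 22Rv1 cells after MED12 knockdown as batch-corrected, without naming the batches. Without the block p-values measure the spread between the libraries of a group. With the block they measure the spread left after the replicate number is taken into account.

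Counts were tested with edgeR 4.0.16 in R 4.3.3 (filterByExpr, TMM, quasi-likelihood F-test, two-sided), and p-values were adjusted over all 17901 tested genes (Benjamini-Hochberg, threshold 0.05). Standard errors were computed from the log2 fold change and the F statistic, and levels are CPM on TMM-scaled library sizes. DESeq2 1.42.0 and limma 3.58.1 were alternatives, as were other scalings and filters, an offset for GC content and length (loess span 0.5), and leaving out libraries. Log2 CPM deviations correlated at 0.532, 0.373 and 0.643 between libraries of the same replicate number and at -0.460 to -0.0233 otherwise, so the numbers were taken to pair the libraries and a blocked fit is given beside the unblocked one. Blocked fits without each replicate number were chosen after seeing the data. Replicates of a group were not duplicates of each other. Both fits were first run on simulated data with 200 known 2-fold changes. The counts were drawn from the blocked model with the replicate effects of these data, a setting that favors the blocked fit. Limits on recovery and false calls were set for the blocked fit only, so the simulation does not decide between the fits.

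Coordinates and exon lengths came from Gencode release 44 (99.9% of counted genes had an entry). All 38 members enter the counts, and list and other cluster genes were named if past the threshold at a mean of 1 CPM or more, up to 3 per direction and list. The neighboring gene count extended 500 kb. The members and lists were chosen with earlier results of these data known. Results for some genes of the symbol pattern and the lists are not reported here.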

Additional observations from a re-analysis of the deposited data

How the results depend on the processing

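HOX calls depended on whether the replicate number entered the fit. Without it 0 HOX genes were called higher or lower with TMM, DESeq2 size factors, library size only, limma-trend, a minimum mean of 1 CPM and each library left out. The replicate block gave 10 higher and 1 lower, also with an offset for GC content and length or with library size only. Blocked fits without replicate 1, 2 and 3 gave 9, 10 and 9 higher, and the 1 lower call was kept without replicate 3 only. DESeq2's Wald test and edgeR without a filter each called 4 higher. No scaling, filter or tool turned the direction of a HOX gene named here.

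Over all genes, 27 higher and 74 lower became 3058 and 2908 with the replicate block, 2502 and 3350 when a GC and length offset was added to it, and 3807 and 2413 when it was combined with library size only. DESeq2 called 319 and 482, no filter 186 and 290, library size only 49 lower and a mean of at least 1 CPM 118 lower. Leaving out a library gave 0 to 8 higher and 0 to 37 lower. In the same order of blocked fits, 0 became 2, 2 and 3 for the other cluster genes, 14, 16 and 13 for flanking genes and 25, 23 and 27 for the cofactor and regulator lists. DESeq2 called 2 flanking and 2 listed genes, and no filter 1 and 1.

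With each library left out, the median log2 fold change of the 26 HOX genes ranged from 0.068 to 0.40 (0.15 with all) and that of MED12 from -1.90 to -1.45. The sign changed within the ranges of HOXA5 (-0.22 to 0.084), HOXA7 (-0.29 to 0.33), HOXA9 (-0.32 to 0.56), HOXA11 (-0.40 to 0.24), HOXA13 (-0.064 to 0.25), HOXC9 (-0.29 to 0.46), HOXC10 (-0.13 to 0.032), HOXC11 (-0.25 to 0.55) and HOXC12 (-0.11 to 0.27). Apart from the pairing of the libraries, the cause of these changes was not tested. Depth limits the HOXD genes and HOXB1, HOXB2 and HOXC5, for which no change could be measured, and with 3 libraries per group a missed threshold does not show equal levels.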
